A study of Mus musculus with 16 samples.

Results

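The amino acid transporter genes are the rows of the count table whose symbol starts with Slc1a, Slc3a, Slc6a, Slc7a, Slc36a, Slc38a or Slc43a followed by a digit. There are 60 among 19574 genes, 58 transporters of the solute carrier families and 2 genes named for the opposite strand of a transporter gene, Slc36a3os and Slc7a6os. Whole tissue of 8 male mice was sequenced, a tumor and adjacent normal colon of each, so that 16 RNA-seq libraries fell into 4 groups: Il23r ΔTreg tumors (5), Il23r ΔTreg adjacent normal colon (5), WT tumors (3) and WT adjacent normal colon (3). Il23r ΔTreg mice (Il23rflflFoxp3YFP-Cre) carry loxP-flanked Il23r and lack the interleukin 23 receptor in Foxp3-expressing regulatory T (Treg) cells, while the WT controls (Foxp3YFP-Cre) carry the same Cre without the floxed gene. All mice were 7 to 8 weeks old at the start and received azoxymethane (AOM, a carcinogen, 10 mg/kg) and then 3 cycles of 5 days of 3.5% dextran sodium sulphate (DSS, which injures the colon epithelium), each followed by 16 days of recovery. The deletion is limited to Treg cells, so whole tissue does not check it, and Il23r lay between 0 and 0.2839 CPM in every library.

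Amino acids cross membranes through carriers. Heterodimeric exchangers pair a heavy chain (Slc3a2 or Slc3a1) with a Slc7 light chain, and the light chain sets which amino acids are swapped. Sodium- or proton-coupled carriers of the Slc1, Slc6, Slc36 and Slc38 families accumulate amino acids, in the intestine partly from the lumen, and some Slc6 carriers instead take up neurotransmitters, taurine, creatine or glycine. In many tumors Slc7a5, Slc7a11 and Slc1a5 are known for supplying leucine, cystine and glutamine, and leucine and arginine are sensed by mTORC1 at the lysosome.

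Values are CPM, the counts of a gene relative to the TMM-scaled total of its library, in the order mouse2901, mouse2902, mouse2903, mouse2904 and mouse3883 for Il23r ΔTreg and mouse2988, mouse2989 and mouse2990 for WT. Libraries held 34418067 to 60836474 counts. Of the 60 members, 54 passed the filter on low counts. Slc36a3, Slc38a5, Slc6a3, Slc7a10, Slc7a13 and Slc7a15 did not, with a highest count of 18 in any library, and were not tested. A gene was called where its log2 fold change was beyond 1 in size and its adjusted p below 0.05. All 3 WT mice shared 1 cage label that no Il23r ΔTreg mouse carried, and the effects of cage and genotype cannot be told apart. The ribosomal gene Rn18s held 0.3425% to 9.447% of each Il23r ΔTreg library. Its share was highest in the tumor of WT mouse2988 (29.65%). The tumor of WT mouse2990 (17.84%) and adjacent normal tissue of WT mouse2988 (19.38%) and mouse2989 (17.09%) were above that range too. The tumor of WT mouse2989 (6.618%) and adjacent normal tissue of WT mouse2990 (2.391%) lay within it. Without Rn18s, 0 members were called between tumors, and other effects of this imbalance between genotypes were not tested.

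Tumors and adjacent normal tissue also differed in markers of cell types. Smooth muscle markers summed to 226.8 to 1591 CPM in Il23r ΔTreg tumors, against 7075 to 10510 CPM in their adjacent normal tissue, and to 567.8 to 837 CPM in WT tumors, against 6444 to 8328 CPM in WT adjacent normal tissue. All 9 of these markers were lower in tumors of both genotypes. The sums of the epithelial markers overlapped, at 9121 to 10440 CPM in Il23r ΔTreg tumors and 9998 to 17240 CPM in their adjacent normal tissue, and at 9003 to 17660 CPM in WT tumors and 10100 to 15520 CPM in WT adjacent normal tissue. Of these 10 markers, Cdx1 and Cdx2 were called lower in tumors of both genotypes and Krt18 higher in WT tumors. Markers of Paneth-like cells summed to 955 to 2045 CPM in Il23r ΔTreg tumors, against 10.7 to 209.9 CPM in their adjacent normal tissue, and to 2107 to 4668 CPM in WT tumors, against 21.02 to 65.02 CPM in WT adjacent normal tissue, and all 5 were higher in both genotypes. Neutrophil markers summed to 218 to 786 CPM in Il23r ΔTreg tumors, against 79.4 to 249 CPM in their adjacent normal tissue, and to 267 to 412 CPM in WT tumors, against 69.4 to 204 CPM in WT adjacent normal tissue, with 6 of 7 higher in each genotype. The sums of the neutrophil markers overlapped in Il23r ΔTreg mice and not in WT mice. Ly6g, the marker not called, was at 178, 143 and 63.7 CPM in WT adjacent normal tissue and made up most of those sums. In Il23r ΔTreg adjacent normal tissue, S100a8 was at 37.5 CPM in mouse2901 and at 2.37 to 2.69 CPM in the other mice. Mast cells had 6 markers, of which 4 rose and 1 fell in tumors of Il23r ΔTreg mice, while 5 rose and 1 fell in those of WT mice. No marker of these lists was at 0 in every library of a group. In bulk tissue, fewer cells of a type and less RNA per cell cannot be told apart, and the part of cell composition in the changes of the transporter genes was not tested.

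Between tumor and adjacent normal tissue, 30 of the 54 tested members were called in Il23r ΔTreg mice, 12 higher and 18 lower in tumors, where 25.7% of all 17122 tested genes were called (9.53% higher, 16.1% lower). In WT mice, 24 members were called, 12 higher and 12 lower, where 25% of all genes were called (12.1% higher, 12.9% lower). These were 55.6% and 44.4% of the tested members. A total of 9 members was higher and 12 were lower in tumors of both genotypes, 12 were called in 1 genotype only, and 51 of 54 had the same sign in both. The median log2 fold change was near 0, at -0.040 for the members and -0.0013 for all genes in Il23r ΔTreg mice, and at 0.10 for the members and -0.011 for all genes in WT mice. Without TMM scaling the median of all genes was 0.11 in Il23r ΔTreg mice and 0.031 in WT mice. Tumors and adjacent normal tissue did not overlap for 33 of the 54 members in Il23r ΔTreg mice (37.2% of all genes) and for 35 in WT mice (48.7% of all genes). The p-values measure the spread between libraries within groups. That spread was estimated over all 16 libraries without the pairing, so p-values for WT mice also draw on Il23r ΔTreg mice.

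**Figure D1:**
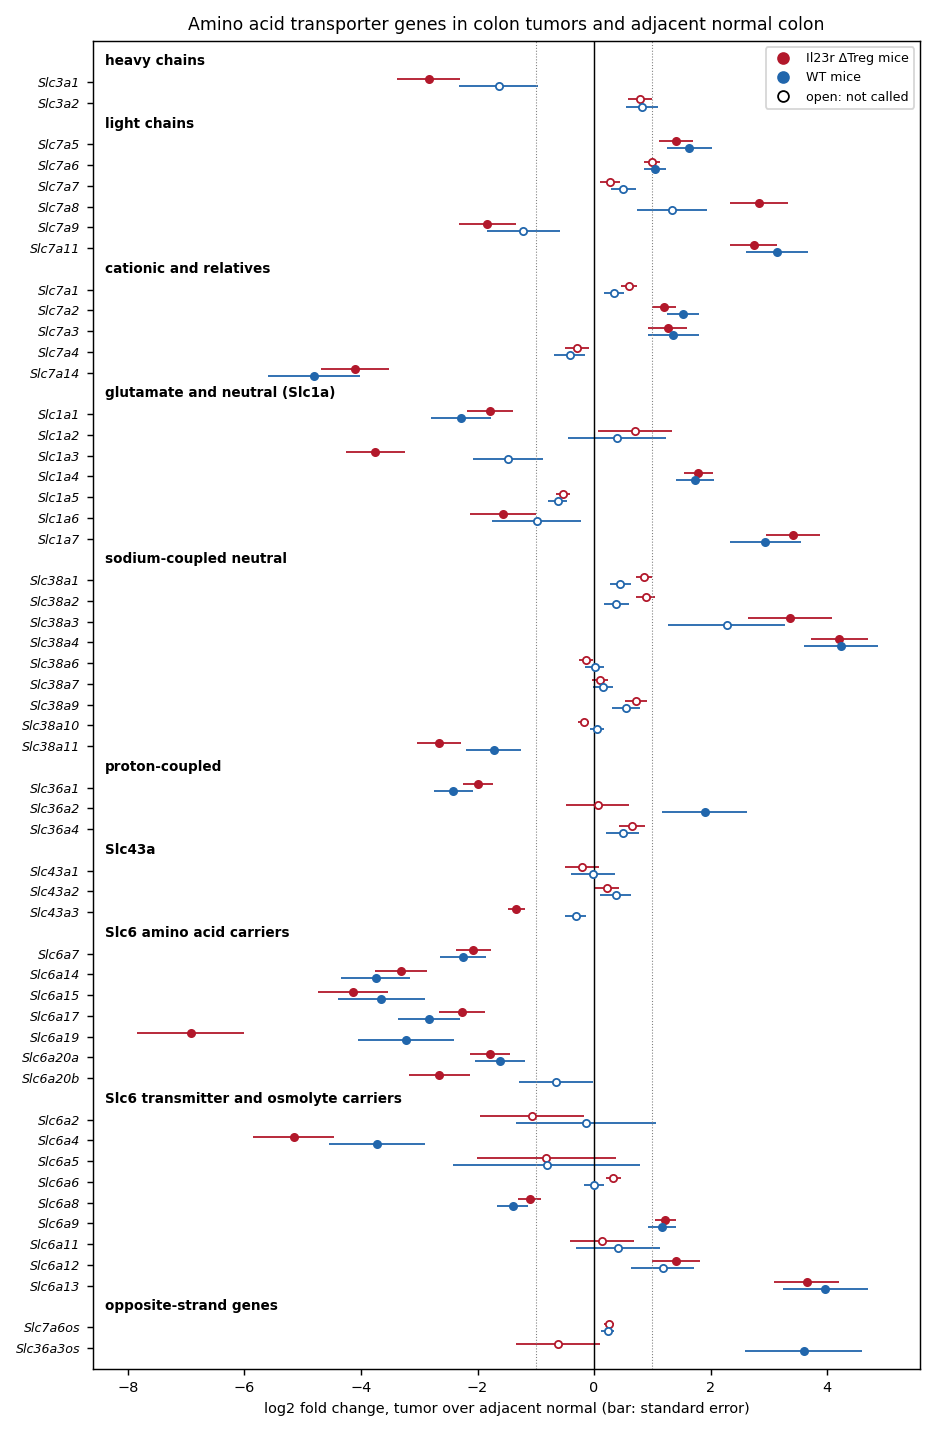
Log2 fold change (tumor over adjacent normal tissue) of 53 of the 54 tested members by role, with Il23r ΔTreg mice (red) above WT mice (blue). Bars are standard errors, filled points are called, and dotted lines mark a log2 fold change of 1 in each direction. The Slc6 amino acid carriers lie left of 0 in both genotypes, and Slc7a11, Slc7a5, Slc1a4 and Slc38a4 lie right of it.

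Among the light chains of the heterodimeric exchangers, Slc7a11 and Slc7a5 were higher in tumors of both genotypes. Slc7a11, the light chain of the exchanger xCT that takes up cystine for glutamate, was at 37.7, 35.8, 51.6, 28.99 and 27.8 CPM in Il23r ΔTreg tumors, against 11.3, 3.01, 5.41, 2.29 and 5.23 CPM in their adjacent normal tissue. Levels were 16.3, 21.2 and 44.4 CPM in WT tumors, against 3.99, 2.36 and 2.96 CPM in WT adjacent normal tissue. The lowest tumor lay above the highest adjacent normal library in each genotype. This gave a log2 fold change of 2.74 ± 0.40 (SE, n = 5 mice, edgeR adjusted p = 5.4e-05) in Il23r ΔTreg mice and 3.14 ± 0.53 (SE, n = 3 mice, adjusted p = 0.000409) in WT mice, which is 6.67-fold higher in Il23r ΔTreg tumors and 8.81-fold higher in WT tumors.

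The promoter of Slc7a11 is shown because it holds, a short distance apart, 2 copies of the C/EBP-ATF composite core TGATGNAA, the letters read by ATF4 dimers at amino acid response elements. The 100 bases before the start site annotated by RefSeq (GRCm38.p6, chr3:50443614-50443713, minus strand, read along the gene) are given with the matches in capitals, 1 on each strand. The promoter of Slc1a4, a neutral amino acid carrier that was also higher in tumors, holds 1 match across its start site, and its last 4 bases lie after that site (chr11:20332710-20332813, minus strand).
Slc7a11: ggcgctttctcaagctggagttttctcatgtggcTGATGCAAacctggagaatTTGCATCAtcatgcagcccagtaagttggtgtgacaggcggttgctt
Slc1a4: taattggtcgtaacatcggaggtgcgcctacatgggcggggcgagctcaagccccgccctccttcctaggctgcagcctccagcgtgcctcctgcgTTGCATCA
On either strand, this core was in 3.06% of the 14496 genes of the table with a RefSeq window of 250 bases before to 50 after the start. Of the members, 44 had such a window and 3 held the core, Slc7a11, Slc1a4 and Slc7a7, the last of which was not called in either genotype. It was in 2 of the 6 windows of members higher in both genotypes and in 0 of the 9 windows of members lower in both. The E-box CACGTG, which is its own reverse complement, was in 10.3% of genes and in 8 of the 44 members, with 2 copies in Slc36a1, and no member held both motifs. A match is a run of letters, and whether a factor binds there was not tested.

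Slc3a2, the heavy chain that carries Slc7a11, Slc7a5, Slc7a6 and Slc7a8 to the surface, was at 81.8, 131, 136, 99.998 and 97.1 CPM in Il23r ΔTreg tumors, against 88.7, 51.97, 51.2, 58.1 and 66.99 CPM in their adjacent normal tissue. The values were 108, 82.5 and 92.7 CPM in WT tumors, against 64.6, 62.3 and 33.04 CPM in WT adjacent normal tissue. The adjacent normal library of mouse2901 was above its tumor, so the Il23r ΔTreg groups overlapped, and the WT groups did not overlap. Its log2 fold change was 0.78 ± 0.21 (SE, n = 5 mice, edgeR adjusted p = 0.00569) in Il23r ΔTreg mice and 0.82 ± 0.27 (SE, n = 3 mice, adjusted p = 0.0238) in WT mice, past the adjusted p but under the fold limit in both. Without mouse2901 it was 1.02 (adjusted p = 0.00127) in Il23r ΔTreg mice, while in WT mice it was 1.04 (adjusted p = 0.0291) without mouse2989 and 0.58 (adjusted p = 0.152) without mouse2990.

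Slc7a5, the light chain of LAT1, which exchanges leucine and other large neutral amino acids, was at 51.5, 32.4, 36.7, 29.9 and 40.3 CPM in Il23r ΔTreg tumors, against 27.2, 11.3, 8.74, 10.4 and 14.3 CPM in their adjacent normal tissue. The level was 42.7, 28.9 and 28.1 CPM in WT tumors, against 13.1, 12.5 and 6.48 CPM in WT adjacent normal tissue. No tumor overlapped with the adjacent normal libraries, although the adjacent normal library of mouse2901 was close to the lowest tumors. On the log2 scale the change was 1.41 ± 0.29 (SE, n = 5 mice, edgeR adjusted p = 0.00104) in Il23r ΔTreg mice and 1.63 ± 0.38 (SE, n = 3 mice, adjusted p = 0.00378) in WT mice.

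Slc7a8, the light chain of LAT2, a basolateral exchanger of neutral amino acids, differed widely between tumors of the same genotype. It was at 15.9, 148, 143, 66.03 and 59.8 CPM in Il23r ΔTreg tumors, against 15.2, 12.8, 8.34, 11.1 and 13.3 CPM in their adjacent normal tissue. It was at 12.6, 28.3 and 55.1 CPM in WT tumors, against 12.1, 13.3 and 12.5 CPM in WT adjacent normal tissue. In 1 mouse of each genotype, mouse2901 and mouse2988, the tumor was at the level of adjacent normal tissue, and the other tumors were at 28.3 CPM or more. The fitted log2 fold change was 2.83 ± 0.49 (SE, n = 5 mice, edgeR adjusted p = 0.000243) in Il23r ΔTreg mice and 1.34 ± 0.60 (SE, n = 3 mice, adjusted p = 0.0897) in WT mice. It was called in Il23r ΔTreg mice only, and the interaction did not pass the test (1.49 ± 0.76 SE, edgeR adjusted p = 0.378). WT mice passed the call as well with DESeq2 (1.35, adjusted p = 0.0482), without mouse2901 (1.34, adjusted p = 0.0311) or without the tumor of mouse2988 (1.76, adjusted p = 0.0412), and without mouse2990 their value was 0.69 (adjusted p = 0.507).

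Slc7a6, the light chain of y+LAT2, which exchanges arginine for glutamine, was at 31.9, 25.1, 25.1, 22.03 and 26.4 CPM in Il23r ΔTreg tumors, against 13.7, 9.699, 14.6, 14.3 and 13.2 CPM in their adjacent normal tissue. Levels were 20.5, 19.7 and 19.8 CPM in WT tumors, against 10.8, 10.6 and 7.65 CPM in WT adjacent normal tissue. The groups did not overlap. The log2 fold change was 0.99 ± 0.14 (SE, n = 5 mice, edgeR adjusted p = 4.9e-05) in Il23r ΔTreg mice and 1.04 ± 0.19 (SE, n = 3 mice, adjusted p = 0.000603) in WT mice, on either side of the fold limit of 1. Without mouse2990, WT mice fell under the limit as well (0.90). Slc7a7, the light chain of the related y+LAT1, had log2 fold changes of 0.28 in Il23r ΔTreg mice and 0.50 in WT mice and was not called. Slc7a6os, named for the strand opposite Slc7a6, had log2 fold changes of 0.26 in Il23r ΔTreg mice and 0.23 in WT mice.

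The exchanger of the brush border was called lower in Il23r ΔTreg tumors. Slc3a1 (rBAT), the heavy chain of the brush border uptake of cystine and dibasic amino acids, was at 0.253, 0.629, 0.373, 1.12 and 0.515 CPM in Il23r ΔTreg tumors, against 4.096, 3.51, 1.68, 5.66 and 5.500 CPM in their adjacent normal tissue. The values were 0.0863, 1.03 and 1.26 CPM in WT tumors, against 2.59, 1.58 and 3.49 CPM in WT adjacent normal tissue. Tumors were below adjacent normal tissue without overlap in both genotypes. This gave a log2 fold change of -2.84 ± 0.54 (SE, n = 5 mice, edgeR adjusted p = 0.000508) in Il23r ΔTreg mice and -1.64 ± 0.67 (SE, n = 3 mice, adjusted p = 0.0634) in WT mice, called in Il23r ΔTreg mice only. With the mouse as a block, WT mice passed the call as well (-1.87, adjusted p = 0.047), as they did with DESeq2 (-1.64, adjusted p = 0.029).

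Its light chain Slc7a9 (b0,+AT) was at 0.393, 2.06, 2.49, 2.002 and 0.403 CPM in Il23r ΔTreg tumors, against 4.96, 6.15, 2.41, 7.58 and 5.05 CPM in their adjacent normal tissue. The level was 1.98, 3.49 and 1.998 CPM in WT tumors, against 8.59, 5.36 and 3.54 CPM in WT adjacent normal tissue. In mouse2903 the tumor was as high as the adjacent normal tissue, so the Il23r ΔTreg groups overlapped. Its log2 fold change was -1.83 ± 0.49 (SE, n = 5 mice, edgeR adjusted p = 0.00651) in Il23r ΔTreg mice and -1.22 ± 0.63 (SE, n = 3 mice, adjusted p = 0.133) in WT mice. The interaction was not called for either chain (Slc3a1 -1.20 ± 0.84 SE, edgeR adjusted p = 0.468).

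Among sodium-coupled carriers of neutral amino acids, Slc1a4 and Slc38a4 were called higher in tumors of both genotypes. Slc1a4 (ASCT1), an exchanger of alanine, serine, cysteine and threonine, was at 46.4, 65.5, 114, 46.6 and 50.4 CPM in Il23r ΔTreg tumors, against 21.1, 14.8, 15.4, 21.1 and 20.9 CPM in their adjacent normal tissue. It was at 44.2, 41.1 and 71.4 CPM in WT tumors, against 14.4, 18.1 and 14.7 CPM in WT adjacent normal tissue. All tumors were above all adjacent normal libraries, and the tumor of mouse2903 was the highest. On the log2 scale the change was 1.79 ± 0.25 (SE, n = 5 mice, edgeR adjusted p = 3.74e-05) in Il23r ΔTreg mice and 1.73 ± 0.32 (SE, n = 3 mice, adjusted p = 0.000812) in WT mice.

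Slc38a4 (SNAT4), which takes up neutral and cationic amino acids, was at 7.22, 26.2, 12.9, 8.03 and 14.9 CPM in Il23r ΔTreg tumors, against 1.42, 0.579, 0.649, 0.207 and 0.875 CPM in their adjacent normal tissue. Levels were 10.7, 6.92 and 14.4 CPM in WT tumors, against 0.404, 0.4501 and 0.818 CPM in WT adjacent normal tissue. The groups were far apart, with the lowest tumor several-fold above the highest adjacent normal library. The fitted log2 fold change was 4.21 ± 0.48 (SE, n = 5 mice, edgeR adjusted p = 7.5e-06) in Il23r ΔTreg mice and 4.24 ± 0.63 (SE, n = 3 mice, adjusted p = 0.000181) in WT mice, which is 18.5-fold and 18.9-fold. The related Slc38a3 (SNAT3), a glutamine carrier, was low, at 0.281, 0.267, 0.542, 0.453 and 0.515 CPM in Il23r ΔTreg tumors, against 0.0431, 0.0187, 0, 0 and 0.118 CPM in their adjacent normal tissue. The values were 0.216, 0.09696 and 0.264 CPM in WT tumors, against 0, 0.0225 and 0.0779 CPM in WT adjacent normal tissue. Its log2 fold change was 3.36 ± 0.72 (SE, n = 5 mice, edgeR adjusted p = 0.00135) in Il23r ΔTreg mice and 2.28 ± 1.00 (SE, n = 3 mice, adjusted p = 0.0821) in WT mice, and it was 4.44 in Il23r ΔTreg mice without mouse3883.

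The widely expressed glutamine and alanine carriers Slc38a1 (SNAT1) and Slc38a2 (SNAT2) had smaller differences. Slc38a1 was at 154, 138, 151, 129 and 136 CPM in Il23r ΔTreg tumors, against 72.1, 74.004, 96.6, 89.6 and 58.8 CPM in their adjacent normal tissue. The level was 86.9, 104 and 125 CPM in WT tumors, against 67.4, 85.95 and 78.2 CPM in WT adjacent normal tissue. Tumors were above adjacent normal tissue without overlap, with a log2 fold change of 0.85 ± 0.14 (SE, n = 5 mice, edgeR adjusted p = 0.00015) in Il23r ΔTreg mice and 0.45 ± 0.18 (SE, n = 3 mice, adjusted p = 0.06) in WT mice. Slc38a2 was at 248, 279, 253, 239 and 250.2 CPM in Il23r ΔTreg tumors, against 130.5, 124, 175, 114 and 144 CPM in their adjacent normal tissue. It was at 132, 209.6 and 242 CPM in WT tumors, against 117, 161 and 169 CPM in WT adjacent normal tissue. The Il23r ΔTreg groups did not overlap and the WT groups did, with a log2 fold change of 0.88 ± 0.16 (SE, n = 5 mice, edgeR adjusted p = 0.000436) in Il23r ΔTreg mice and 0.38 ± 0.21 (SE, n = 3 mice, adjusted p = 0.16) in WT mice.

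Slc1a5 (ASCT2), the glutamine exchanger, passed the adjusted p, with lower values in tumors, but not the fold limit. It was at 129, 128, 147, 123 and 136 CPM in Il23r ΔTreg tumors, against 143, 206, 178, 246 and 185 CPM in their adjacent normal tissue. Levels were 119.5, 123 and 132 CPM in WT tumors, against 184, 205 and 186 CPM in WT adjacent normal tissue. Adjacent normal tissue of mouse2901 lay within the range of the tumors, and the WT groups did not overlap. The log2 fold change was -0.53 ± 0.13 (SE, n = 5 mice, edgeR adjusted p = 0.00268) in Il23r ΔTreg mice and -0.62 ± 0.16 (SE, n = 3 mice, adjusted p = 0.00769) in WT mice.

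The remaining Slc38 members are mostly carriers of internal membranes. Slc38a9, the lysosomal arginine carrier that signals to mTORC1, was at 14.7, 20.3, 22.00, 14.99 and 15.6 CPM in Il23r ΔTreg tumors, against 12.2, 8.39, 11.7, 8.76 and 12.2 CPM in their adjacent normal tissue. The values were 11.2, 16.5 and 20.98 CPM in WT tumors, against 12.3, 9.48 and 11.6 CPM in WT adjacent normal tissue. The Il23r ΔTreg groups did not overlap and the WT groups did, and the log2 fold change was 0.72 ± 0.19 (SE, n = 5 mice, edgeR adjusted p = 0.00557) in Il23r ΔTreg mice and 0.55 ± 0.24 (SE, n = 3 mice, adjusted p = 0.0845) in WT mice. Slc38a6, Slc38a7 and Slc38a10 lay between -0.18 and 0.15 in both genotypes. Slc38a11 was called lower, with a log2 fold change of -2.66 ± 0.38 (SE, n = 5 mice, edgeR adjusted p = 4.79e-05) in Il23r ΔTreg mice and -1.72 ± 0.47 (SE, n = 3 mice, adjusted p = 0.01) in WT mice, and lost its WT call without mouse2988 (-1.37, adjusted p = 0.0706) or mouse2990 (-1.51, adjusted p = 0.0896), with a value of -2.42 without mouse2989. Slc38a5 (SNAT5), a glutamine carrier, held 6 counts at most and was at 0.01404, 0, 0, 0 and 0 CPM in Il23r ΔTreg tumors, against 0.0431, 0.0187, 0, 0 and 0.0336 CPM in their adjacent normal tissue. The level was 0, 0 and 0 CPM in WT tumors, against 0.0269, 0.135 and 0.0584 CPM in WT adjacent normal tissue.

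Of the cationic amino acid carriers, which supply arginine, lysine and ornithine, Slc7a2 (CAT2) was called higher in tumors of both genotypes. It was at 11.1, 6.23, 10.1, 8.84 and 12.6 CPM in Il23r ΔTreg tumors, against 4.48, 4.04, 4.75, 2.83 and 5.15 CPM in their adjacent normal tissue. It was at 8.28, 10.5 and 12.4 CPM in WT tumors, against 4.04, 3.08 and 3.74 CPM in WT adjacent normal tissue. The groups did not overlap. This gave a log2 fold change of 1.20 ± 0.21 (SE, n = 5 mice, edgeR adjusted p = 0.000267) in Il23r ΔTreg mice and 1.52 ± 0.28 (SE, n = 3 mice, adjusted p = 0.000686) in WT mice.

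Slc7a1 (CAT1), the widely expressed member, was at 65.1, 45.4, 43.4, 44.1 and 55.4 CPM in Il23r ΔTreg tumors, against 39.8, 28.7, 29.1, 37.5 and 32.5 CPM in their adjacent normal tissue. Levels were 36.7, 41.4 and 37.1 CPM in WT tumors, against 32.5, 31.6 and 26.8 CPM in WT adjacent normal tissue. Tumors were above adjacent normal tissue in both genotypes, by a log2 fold change of 0.60 ± 0.13 (SE, n = 5 mice, edgeR adjusted p = 0.00197) in Il23r ΔTreg mice and 0.34 ± 0.17 (SE, n = 3 mice, adjusted p = 0.128) in WT mice, under the fold limit. Slc7a3 (CAT3) did not exceed 0.793 CPM in any library, with a log2 fold change of 1.26 ± 0.33 (SE, n = 5 mice, edgeR adjusted p = 0.00543) in Il23r ΔTreg mice and 1.36 ± 0.44 (SE, n = 3 mice, adjusted p = 0.0232) in WT mice. Its WT call was lost with the mouse as a block (1.30, edgeR adjusted p = 0.0532), without mouse2989 (1.41, adjusted p = 0.0718) and without mouse2990 (1.00, adjusted p = 0.198). Slc7a4 was not called in either genotype (-0.30 and -0.42).

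Of the glycine, betaine and GABA carriers of the Slc6 family, Slc6a9 and Slc6a13 were called higher in tumors of both genotypes. Slc6a9 (GlyT1), a glycine carrier, was at 36.8, 59.8, 67.1, 44.8 and 52.2 CPM in Il23r ΔTreg tumors, against 24.9, 17.9, 19.9, 17.3 and 31.8 CPM in their adjacent normal tissue. The values were 43.9, 39.2 and 46.2 CPM in WT tumors, against 18.2, 22.01 and 17.7 CPM in WT adjacent normal tissue. The groups did not overlap. Its log2 fold change was 1.22 ± 0.19 (SE, n = 5 mice, edgeR adjusted p = 7.9e-05) in Il23r ΔTreg mice and 1.16 ± 0.24 (SE, n = 3 mice, adjusted p = 0.00174) in WT mice.

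Slc6a13 (GAT2), which carries GABA and taurine, was at 3.45, 3.16, 2.79, 1.53 and 2.31 CPM in Il23r ΔTreg tumors, against 0.302, 0.149, 0.446, 0.145 and 0.0168 CPM in their adjacent normal tissue. The level was 5.52, 1.97 and 4.08 CPM in WT tumors, against 0.3503, 0.293 and 0.0974 CPM in WT adjacent normal tissue. The lowest tumor was at 1.53 CPM and the highest adjacent normal library at 0.446 CPM, with a log2 fold change of 3.65 ± 0.56 (SE, n = 5 mice, edgeR adjusted p = 8.61e-05) in Il23r ΔTreg mice and 3.97 ± 0.73 (SE, n = 3 mice, adjusted p = 0.000785) in WT mice. Slc6a12 (BGT1), the betaine and GABA carrier, had a log2 fold change of 1.41 ± 0.41 (SE, n = 5 mice, edgeR adjusted p = 0.0111) in Il23r ΔTreg mice and 1.18 ± 0.54 (SE, n = 3 mice, adjusted p = 0.0937) in WT mice, and without mouse2901 the Il23r ΔTreg value was 1.00 (adjusted p = 0.0508). The taurine carrier Slc6a6 (TauT) was at 183, 171, 184, 149 and 166 CPM in Il23r ΔTreg tumors, against 138, 121, 134, 114 and 171 CPM in their adjacent normal tissue. It was at 115, 163 and 155 CPM in WT tumors, against 147, 134 and 151 CPM in WT adjacent normal tissue. Its groups overlapped, and its log2 fold change was 0.33 ± 0.13 (SE, n = 5 mice, edgeR adjusted p = 0.046) in Il23r ΔTreg mice and 0.00 ± 0.17 (SE, n = 3 mice, adjusted p = 1.0) in WT mice.

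Slc1a7 (EAAT5), a glutamate carrier known from the retina, was at 0.8704, 1.33, 2.13, 1.26 and 0.919 CPM in Il23r ΔTreg tumors, against 0.129, 0.131, 0.122, 0.0826 and 0.135 CPM in their adjacent normal tissue. Levels were 0.388, 0.307 and 1.62 CPM in WT tumors, against 0.108, 0.09003 and 0.0974 CPM in WT adjacent normal tissue. The tumors lay above the adjacent normal libraries in both genotypes, and the tumor of mouse2990 was several times the other WT tumors. On the log2 scale the change was 3.41 ± 0.46 (SE, n = 5 mice, edgeR adjusted p = 2.91e-05) in Il23r ΔTreg mice and 2.94 ± 0.61 (SE, n = 3 mice, adjusted p = 0.0018) in WT mice, and 1.77 in WT mice without mouse2990.

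**Figure D2:**
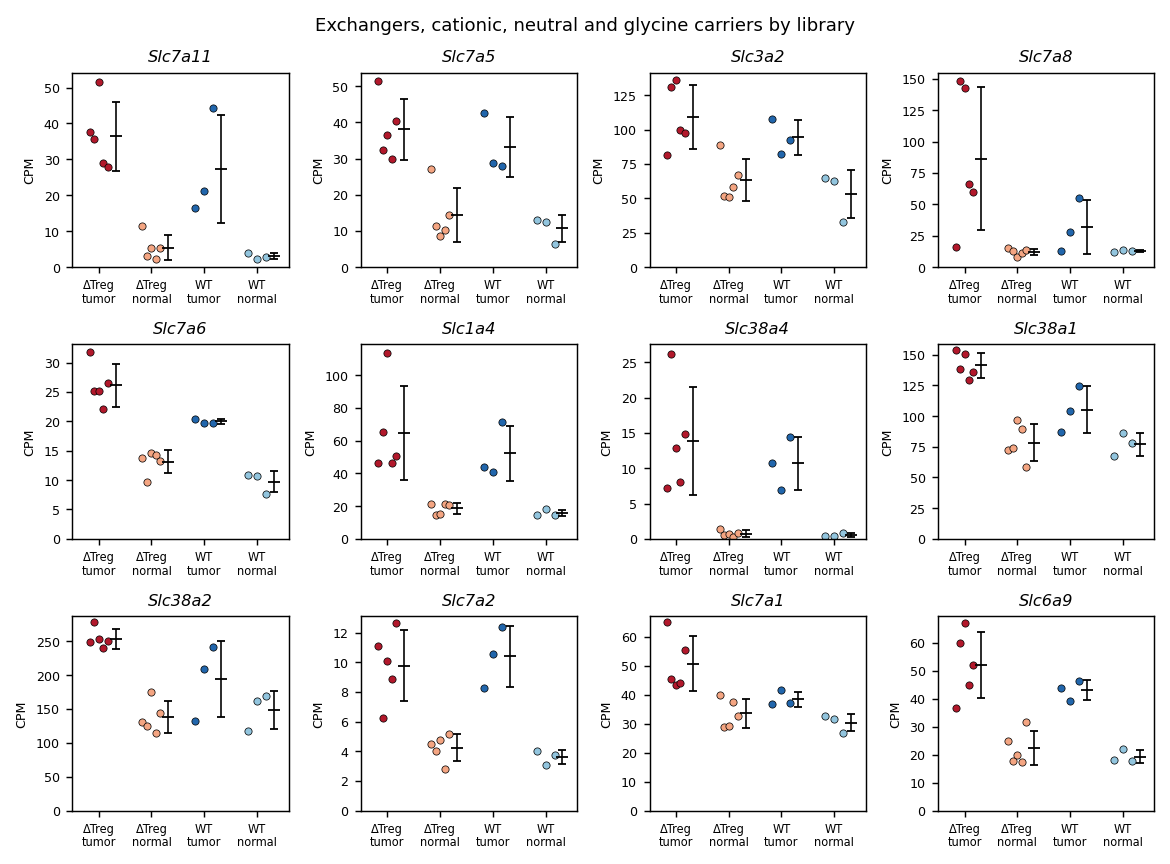
CPM of 12 members in each library (points), with the mean and SD beside them, for Il23r ΔTreg tumors and adjacent normal tissue and for WT tumors and adjacent normal tissue. Each axis starts at 0. For Slc7a11, Slc7a5, Slc1a4, Slc38a4, Slc7a2 and Slc6a9 every tumor lies above every adjacent normal library of its genotype, and for Slc7a8 the tumors of mouse2901 (15.9 CPM) and mouse2988 (12.6 CPM) do not stand clear of adjacent normal tissue.

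Several carriers known from the apical membrane of the intestine were called lower in tumors. These were Slc6a14, Slc6a19, Slc6a20a, Slc1a1 and Slc36a1 in both genotypes, and Slc3a1 and Slc7a9 in Il23r ΔTreg mice only. Slc6a20b, a paralog of Slc6a20a, was also called lower in Il23r ΔTreg mice only. In every WT mouse, Slc3a1 and Slc7a9 were lower in the tumor as well, and no interaction was called. Slc6a14 (ATB0,+), which takes up neutral and cationic amino acids at the apical membrane of the colon, had the largest difference in mean CPM of the 60 members in both genotypes. It was at 36.3, 42.8, 41.7, 65.96 and 44.9 CPM in Il23r ΔTreg tumors, against 371, 495, 635, 409 and 383 CPM in their adjacent normal tissue. The values were 20.4, 107 and 18.5 CPM in WT tumors, against 396, 540.0 and 1023 CPM in WT adjacent normal tissue. The highest tumor, that of mouse2989, was at 107 CPM, and the lowest adjacent normal library was at 371 CPM. The fitted log2 fold change was -3.31 ± 0.45 (SE, n = 5 mice, edgeR adjusted p = 2.95e-05) in Il23r ΔTreg mice and -3.75 ± 0.59 (SE, n = 3 mice, adjusted p = 0.000265) in WT mice, so tumors were 9.89-fold and 13.4-fold lower. The WT value was -5.19 without mouse2989 and -2.88 without mouse2990.

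Slc6a19 (B0AT1), the neutral amino acid carrier of the brush border of the small intestine, was low in adjacent normal colon and at 0 in most tumors. It was at 0, 0, 0.0169, 0 and 0 CPM in Il23r ΔTreg tumors, against 0.539, 0.635, 0.7098, 0.971 and 0.925 CPM in their adjacent normal tissue, and the 5 tumors held 1 count in all, against 196 counts. The ratio of tumor to adjacent normal CPM over these libraries was 0.00487, with an exact 95% counting interval of 0.000123 to 0.0275. A count of 0 in an Il23r ΔTreg tumor library allows up to 0.0421 to 0.0715 CPM (3 counts), and these limits and intervals cover counting error only. WT tumors were at 0, 0.291 and 0 CPM, against 1.24, 1.13 and 1.03 CPM in WT adjacent normal tissue, and all 18 counts in WT tumors came from mouse2989, a ratio of 0.135 (0.0778 to 0.221). Both comparisons were called (edgeR adjusted p = 2.51e-05 and 0.00663), and the fitted log2 fold changes of a gene with such counts depend on the prior count.

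Slc6a20a (SIT1), the apical proline and imino acid carrier, was at 2.89, 2.496, 3.099, 4.79 and 3.56 CPM in Il23r ΔTreg tumors, against 7.44, 13.2, 13.1, 8.99 and 15.3 CPM in their adjacent normal tissue. The level was 2.85, 7.03 and 1.498 CPM in WT tumors, against 12.2, 13.1 and 9.95 CPM in WT adjacent normal tissue. Tumors were below adjacent normal tissue without overlap. The log2 fold change was -1.78 ± 0.34 (SE, n = 5 mice, edgeR adjusted p = 0.000484) in Il23r ΔTreg mice and -1.62 ± 0.43 (SE, n = 3 mice, adjusted p = 0.00868) in WT mice. Without mouse2988 the WT call was lost (-1.44, adjusted p = 0.0664), and without mouse2989 the value was -2.36. Its paralog Slc6a20b did not exceed 0.811 CPM in any library, with a log2 fold change of -2.65 ± 0.52 (SE, n = 5 mice, edgeR adjusted p = 0.000685) in Il23r ΔTreg mice and -0.66 ± 0.63 (SE, n = 3 mice, adjusted p = 0.425) in WT mice, and reads shared between these near-identical copies could have been split by the quantification.

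Slc1a1 (EAAC1), the epithelial glutamate, aspartate and cysteine carrier, was at 20.4, 9.43, 5.199, 13.6 and 11.3 CPM in Il23r ΔTreg tumors, against 31.1, 46.3, 45.98, 54.1 and 30.6 CPM in their adjacent normal tissue. It was at 5.56, 13.99 and 2.88 CPM in WT tumors, against 23.9, 40.2 and 46.4 CPM in WT adjacent normal tissue. The groups did not overlap. This gave a log2 fold change of -1.79 ± 0.39 (SE, n = 5 mice, edgeR adjusted p = 0.00157) in Il23r ΔTreg mice and -2.29 ± 0.52 (SE, n = 3 mice, adjusted p = 0.00314) in WT mice, and -3.07 in WT mice without mouse2989.

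Slc36a1 (PAT1), a proton-coupled carrier of small amino acids found at the intestinal surface and on lysosomes, was at 34.1, 38.98, 40.7, 42.3 and 48.9 CPM in Il23r ΔTreg tumors, against 153, 186, 114, 145 and 219 CPM in their adjacent normal tissue. Levels were 24.7, 72.1 and 33.4 CPM in WT tumors, against 179.8, 255 and 263 CPM in WT adjacent normal tissue. The highest tumor, that of mouse2989, lay below every adjacent normal library. Its log2 fold change was -1.996 ± 0.26 (SE, n = 5 mice, edgeR adjusted p = 1.9e-05) in Il23r ΔTreg mice and -2.42 ± 0.34 (SE, n = 3 mice, adjusted p = 0.000113) in WT mice. Of the other tested members of this family none was called lower. Slc36a4 had a log2 fold change of 0.65 ± 0.22 (SE, n = 5 mice, edgeR adjusted p = 0.0254) in Il23r ΔTreg mice and 0.49 ± 0.29 (SE, n = 3 mice, adjusted p = 0.187) in WT mice, and Slc36a2 of 0.06 ± 0.55 (SE, n = 5 mice, edgeR adjusted p = 0.94) in Il23r ΔTreg mice and 1.90 ± 0.73 (SE, n = 3 mice, adjusted p = 0.0491) in WT mice. The WT call of Slc36a2 was lost without mouse2988 (2.42, adjusted p = 0.0571), mouse2989 (1.33, adjusted p = 0.253) or mouse2990 (2.03, adjusted p = 0.105), and without Il23r ΔTreg mouse2902, mouse2903 or mouse3883 (1.94, 1.94 and 1.90, adjusted p = 0.0576, 0.0584 and 0.067).

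Outside the rule, Slc15a1 (PEPT1), the apical carrier of small peptides, was lower as well, with a log2 fold change of -3.92 ± 0.50 (SE, n = 5 mice, edgeR adjusted p = 1.65e-05) in Il23r ΔTreg mice and -3.35 ± 0.62 (SE, n = 3 mice, adjusted p = 0.000818) in WT mice. Slc16a10 (TAT1), the basolateral carrier of aromatic amino acids, was higher, with a log2 fold change of 2.95 ± 0.28 (SE, n = 5 mice, edgeR adjusted p = 1.65e-06) in Il23r ΔTreg mice and 3.08 ± 0.37 (SE, n = 3 mice, adjusted p = 4.57e-05) in WT mice. Of 15 tested carriers of amino acids and peptides outside the rule, only Slc16a10 (higher) and Slc15a1 (lower) were called in Il23r ΔTreg tumors. There, 25.7% of all genes were called. In WT tumors only Slc15a3 and Slc16a10 were called higher and Slc15a1 lower, where 25% of all genes were called.

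Beside these changes, markers of colonocytes summed to 273 to 1048 CPM in Il23r ΔTreg tumors, against 1867 to 4272 CPM in their adjacent normal tissue, and to 861 to 1281 CPM in WT tumors, against 3789 to 4661 CPM in WT adjacent normal tissue. Of 10 such markers, 6 were lower and 1 was higher in tumors of each genotype. Goblet cell markers summed to 1650 to 3651 CPM in Il23r ΔTreg tumors, against 11870 to 17800 CPM in their adjacent normal tissue (7 of 7 lower), and to 2264 to 4273 CPM in WT tumors, against 15690 to 16940 CPM in WT adjacent normal tissue (5 of 7 lower). Their part in the lower levels of these carriers was not tested.

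Several carriers known from neurons were lower in tumors of both genotypes. Slc6a17 (NTT4), a synaptic vesicle carrier of neutral amino acids, was at 1.53, 3.05, 6.25, 3.599 and 1.88 CPM in Il23r ΔTreg tumors, against 16.8, 16.8, 11.3, 18.02 and 15.8 CPM in their adjacent normal tissue. The values were 0.474, 2.44 and 1.76 CPM in WT tumors, against 10.1, 15.4 and 8.74 CPM in WT adjacent normal tissue. The groups did not overlap. On the log2 scale the change was -2.27 ± 0.40 (SE, n = 5 mice, edgeR adjusted p = 0.000273) in Il23r ΔTreg mice and -2.83 ± 0.53 (SE, n = 3 mice, adjusted p = 0.000911) in WT mice.

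Slc6a15 (B0AT2), a neuronal carrier of branched-chain amino acids and proline, was at 0.0421, 0.0381, 0.0508, 0.0715 and 0 CPM in Il23r ΔTreg tumors, against 0.949, 0.523, 0.933, 0.434 and 0.942 CPM in their adjacent normal tissue. The level was 0, 0.162 and 0.0294 CPM in WT tumors, against 1.32, 0.968 and 0.759 CPM in WT adjacent normal tissue. The highest tumor, that of mouse2989, was at 0.162 CPM. The fitted log2 fold change was -4.13 ± 0.60 (SE, n = 5 mice, edgeR adjusted p = 5.6e-05) in Il23r ΔTreg mice and -3.65 ± 0.74 (SE, n = 3 mice, adjusted p = 0.00156) in WT mice, and in WT mice it was -3.05 without mouse2988 and -5.72 without mouse2989. Slc7a14, a relative of the cationic carriers, had a log2 fold change of -4.11 ± 0.58 (SE, n = 5 mice, edgeR adjusted p = 4.47e-05) in Il23r ΔTreg mice and -4.80 ± 0.79 (SE, n = 3 mice, adjusted p = 0.000373) in WT mice, and without mouse2904 the Il23r ΔTreg value was -4.94. Slc6a7 (PROT), the brain proline carrier, was at 3.58, 1.71, 2.39, 2.69 and 2.64 CPM in Il23r ΔTreg tumors, against 7.68, 11.5, 11.6, 9.59 and 14.4 CPM in their adjacent normal tissue. It was at 1.25, 4.01 and 3.23 CPM in WT tumors, against 11.2, 10.4 and 19.5 CPM in WT adjacent normal tissue. The tumors were below all adjacent normal libraries, by a log2 fold change of -2.07 ± 0.30 (SE, n = 5 mice, edgeR adjusted p = 5.5e-05) in Il23r ΔTreg mice and -2.25 ± 0.39 (SE, n = 3 mice, adjusted p = 0.00052) in WT mice.

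With these, all 7 amino acid carriers of the Slc6 family (Slc6a7, Slc6a14, Slc6a15, Slc6a17, Slc6a19, Slc6a20a and Slc6a20b) were called lower in Il23r ΔTreg tumors and 6 of 7 in WT tumors, and Slc6a20b, the exception, had a negative value there as well.

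Slc6a4 (SERT), the serotonin carrier, was at 0.0421, 0.305, 0.406, 1.41 and 0.628 CPM in Il23r ΔTreg tumors, against 11.1, 28.2, 17.9, 22.3 and 16.7 CPM in their adjacent normal tissue. Levels were 0.863, 4.38 and 0.558 CPM in WT tumors, against 24.4, 31.4 and 23.7 CPM in WT adjacent normal tissue. The highest tumor, that of mouse2989, was at 4.38 CPM, and the lowest adjacent normal library at 11.1 CPM. The log2 fold change was -5.15 ± 0.70 (SE, n = 5 mice, edgeR adjusted p = 2.99e-05) in Il23r ΔTreg mice and -3.72 ± 0.82 (SE, n = 3 mice, adjusted p = 0.00264) in WT mice. It was -5.78 in Il23r ΔTreg mice without mouse2904 and -5.09 in WT mice without mouse2989.

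Slc1a3 (GLAST), a glial glutamate carrier, was at 0.0702, 0.0381, 0.0339, 0.334 and 0.157 CPM in Il23r ΔTreg tumors, against 2.29, 1.74, 1.56, 1.14 and 1.56 CPM in their adjacent normal tissue. The values were 0.474, 0.469 and 0.235 CPM in WT tumors, against 1.29, 1.01 and 0.993 CPM in WT adjacent normal tissue. Tumors were below adjacent normal tissue without overlap in both genotypes, with a log2 fold change of -3.75 ± 0.51 (SE, n = 5 mice, edgeR adjusted p = 2.99e-05) in Il23r ΔTreg mice and -1.48 ± 0.59 (SE, n = 3 mice, adjusted p = 0.0597) in WT mice. The call was in Il23r ΔTreg mice only, and without mouse2904 their value was -4.58. WT mice passed the call in 6 alternatives, such as DESeq2 (-1.46, adjusted p = 0.0199) and leaving out mouse2904 (-1.48, adjusted p = 0.0216). The glutamate carriers Slc1a2 (GLT-1) and Slc1a6 (EAAT4) did not exceed 2.20 CPM in any library, and Slc1a2 was called only without mouse2901 (1.56 in Il23r ΔTreg mice, adjusted p = 0.0263). Slc1a6 was called lower in Il23r ΔTreg mice only (-1.56 ± 0.57 SE, edgeR adjusted p = 0.0328), and the call was lost without mouse2903, mouse2904, mouse2989 or mouse3883 (-1.47, -1.68, -1.56 and -1.47, adjusted p = 0.0925, 0.0536, 0.0519 and 0.103).

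Beside these carriers, markers of enteric neurons summed to 7.42 to 14.0 CPM in Il23r ΔTreg tumors, against 43.7 to 63.1 CPM in their adjacent normal tissue, and to 6.58 to 11.1 CPM in WT tumors, against 54.3 to 72.3 CPM in WT adjacent normal tissue. Of 8 such markers, 7 were lower in Il23r ΔTreg tumors and 8 in WT tumors. Markers of enteric glia summed to 1.66 to 5.77 CPM in Il23r ΔTreg tumors, against 15.3 to 21.8 CPM in their adjacent normal tissue (5 of 6 lower), and to 1.04 to 4.65 CPM in WT tumors, against 16.1 to 16.8 CPM in WT adjacent normal tissue (5 of 6 lower). Markers of enteroendocrine cells summed to 9.62 to 47.1 CPM in Il23r ΔTreg tumors, against 328 to 569.7 CPM in their adjacent normal tissue (7 of 7 lower), and to 9.08 to 90.6 CPM in WT tumors, against 449 to 543 CPM in WT adjacent normal tissue (6 of 7 lower). The summed markers of all 3 cell types were lower in every tumor than in any adjacent normal library. Their part in the lower levels of the neuronal, glial and serotonin carriers was not tested.

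Slc6a8 (CT1), the creatine carrier and a member with a high level in every group, was at 134, 255, 213, 253 and 185 CPM in Il23r ΔTreg tumors, against 347, 489.6, 332, 557 and 518 CPM in their adjacent normal tissue. The level was 178, 274 and 171 CPM in WT tumors, against 572, 554 and 512 CPM in WT adjacent normal tissue. Tumors were below adjacent normal tissue without overlap. This gave a log2 fold change of -1.11 ± 0.20 (SE, n = 5 mice, edgeR adjusted p = 0.000407) in Il23r ΔTreg mice and -1.39 ± 0.27 (SE, n = 3 mice, adjusted p = 0.00101) in WT mice. The transmitter carriers Slc6a2, Slc6a5 and Slc6a11 did not exceed 4.05 CPM in any library and were not called.

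**Figure D3:**
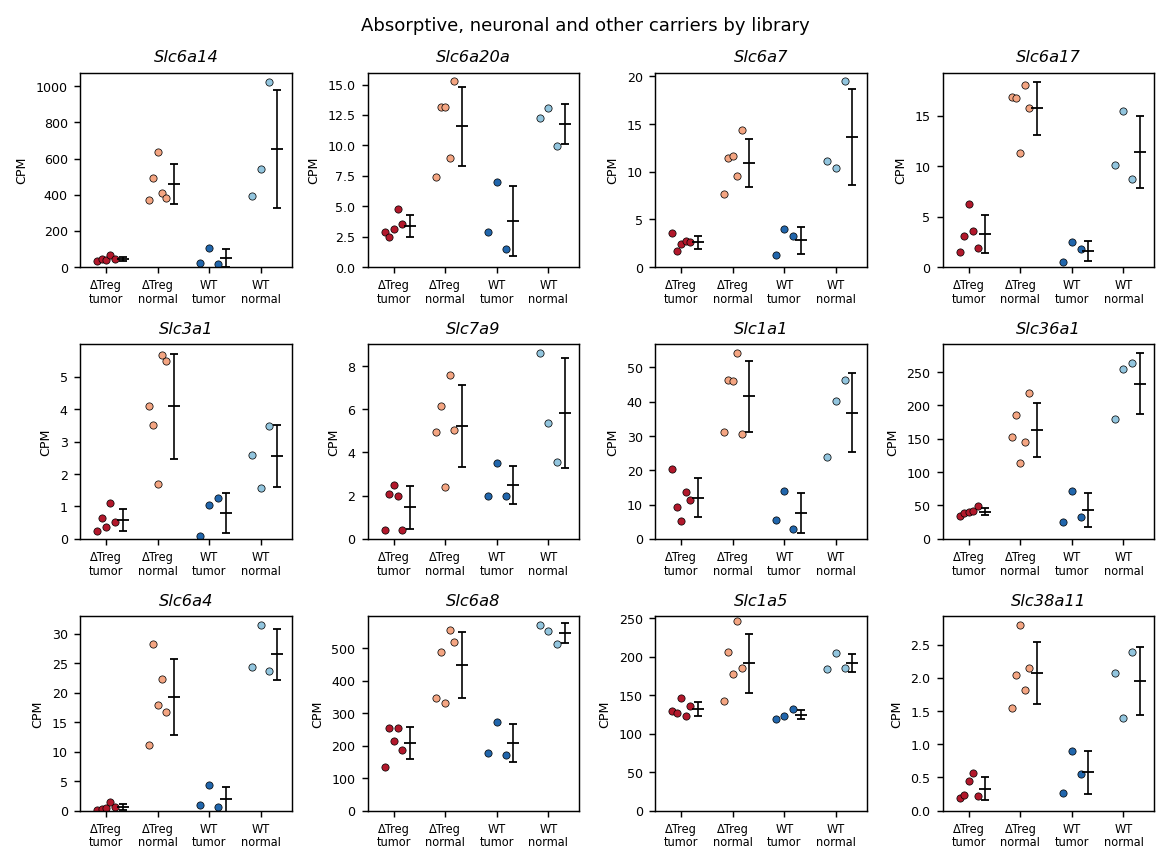
CPM of 12 members in each library (points), with the mean and SD beside them, for Il23r ΔTreg tumors and adjacent normal tissue and for WT tumors and adjacent normal tissue. Each axis starts at 0. Tumors lie below every adjacent normal library of their genotype for 10 of the 12 members, and overlap with them in Il23r ΔTreg mice for Slc7a9 and Slc1a5.

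Direction within mice is given as description only. The members were called on these same libraries, so a shared direction follows largely from the call and is no separate support. Tumor and adjacent normal tissue of 1 mouse could be set against each other as a log2 ratio, and all 12 members called higher in Il23r ΔTreg tumors were higher in 5 of 5 mice. Of the 18 called lower there, 17 were lower in 5 of 5 mice, the exception being Slc7a9 in mouse2903. In WT mice, all 12 members called higher and all 12 called lower kept their direction in 3 of 3 mice. The sizes differed more, as for Slc7a8, whose log2 ratio within mice lay between 0.057 and 4.09 in Il23r ΔTreg mice.

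**Figure D4:**
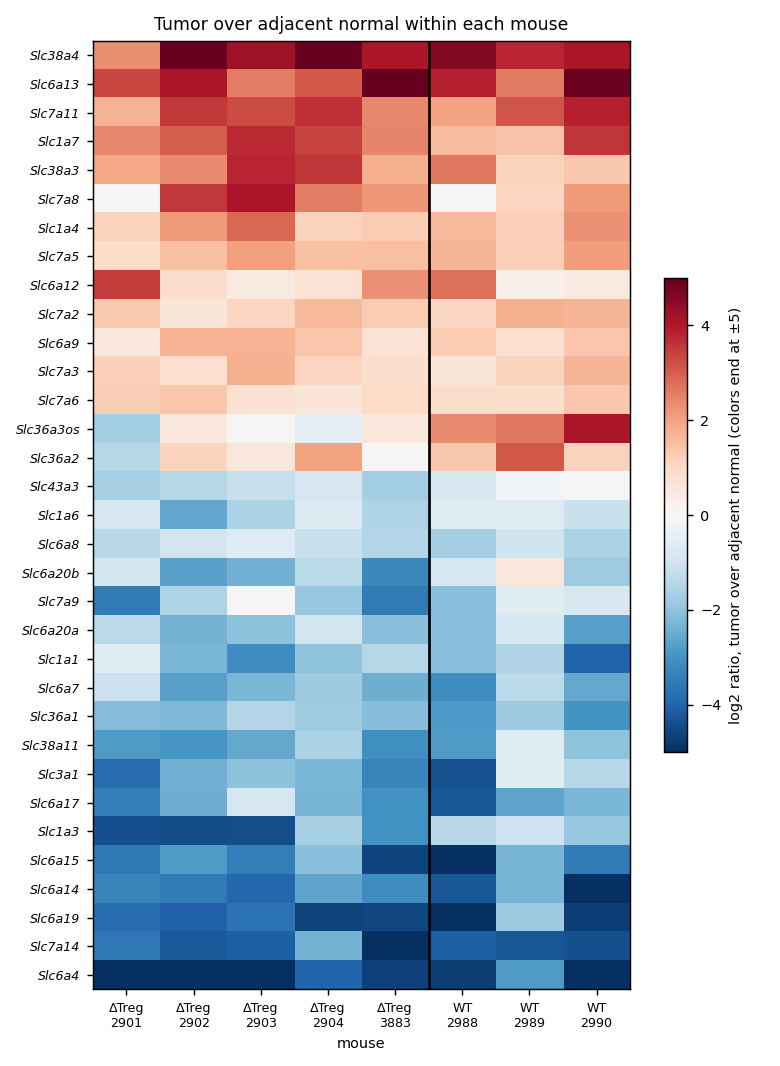
Log2 ratio of tumor over adjacent normal tissue within each mouse (columns, Il23r ΔTreg left and WT right of the line) for the 33 members called in at least 1 genotype (rows, ordered by their mean). Red is higher and blue lower in the tumor, and colors end at 5 in each direction. Rows keep 1 color across mice apart from Slc36a3os, Slc36a2, Slc6a20b and Slc7a9.

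Levels of different members were compared per kilobase of each gene's longest transcript in the GENCODE annotation, an approximate scale, since the transcripts in use were not resolved. On this scale Slc6a14 led in adjacent normal tissue, with 133.5 CPM per kilobase in Il23r ΔTreg mice and 190.2 in WT mice, followed by Slc6a8 with 113 and 138. In tumors, Slc38a2 (54.5 in Il23r ΔTreg mice and 41.7 in WT mice), Slc6a8 (52.5 and 52.5) and Slc1a5 (47.9 and 45.2) held the first 3 places in both genotypes, and Slc3a2 (38.8 and 33.5) was the fourth. Slc6a14 stood at 13.5 and 14.1 in tumors. Slc7a8 was at 21.2 in Il23r ΔTreg tumors and 7.83 in WT tumors.

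Genes of amino acid metabolism and sensing were read from lists. Of 24 genes of the ATF4 and amino acid response, 5 were called higher in Il23r ΔTreg tumors (Chac1, Ddit4, Phgdh, Psat1 and Pycr1) and 1 lower (Cth), with a median of 0.42. Of all genes, 25.7% were called there, 9.53% higher and 16.1% lower. In WT tumors 11 were higher, the same apart from Ddit4 with Asns, Cebpb, Eif4ebp1, Mthfd2, Psph, Shmt2 and Trib3, and Cth was lower, with a median of 1.00. Of all genes, 25% were called there, 12.1% higher and 12.9% lower. Among genes called higher in WT mice only, Asns, Cebpb, Eif4ebp1, Mthfd2, Psph and Shmt2 were highest in the tumor of mouse2988. In the order of the WT mice, their tumors held 68.7, 19.6 and 20.45 CPM of Eif4ebp1 and 97.8, 32.6 and 35.0 CPM of Cebpb. Asns was at 63.2, 31.5 and 30.9 CPM there. Pycr1, called in both genotypes, was highest in the tumor of mouse2990 among WT tumors. Psat1, an enzyme of serine synthesis, had a log2 fold change of 1.59 ± 0.23 (SE, n = 5 mice, edgeR adjusted p = 4.56e-05) in Il23r ΔTreg mice and 2.54 ± 0.30 (SE, n = 3 mice, adjusted p = 4.6e-05) in WT mice. Asns, asparagine synthetase, had one of 0.54 ± 0.24 (SE, n = 5 mice, edgeR adjusted p = 0.0806) in Il23r ΔTreg mice and 1.25 ± 0.32 (SE, n = 3 mice, adjusted p = 0.00655) in WT mice. The interaction was called for 0 of the 24 genes, 0% of all genes.

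Of 24 genes of mTORC1 and its regulation by amino acids, 3 were lower in Il23r ΔTreg tumors (Rragb, Rragd and Sesn1) and 1 in WT tumors (Fnip2). Their medians were -0.18 and 0.0058, where 16.1% and 12.9% of all genes were lower. Of 22 genes of glutamine, glutamate and branched-chain metabolism, Gls2, Gsr and Prodh were higher in tumors of both genotypes and Gpt was lower, and in WT tumors Gpx4 was also higher and Dbt lower, where 25.7% of all genes were called in Il23r ΔTreg mice and 25% in WT mice. Gls2, a glutaminase, had a log2 fold change of 1.58 ± 0.35 (SE, n = 5 mice, edgeR adjusted p = 0.00152) in Il23r ΔTreg mice and 2.15 ± 0.46 (SE, n = 3 mice, adjusted p = 0.00215) in WT mice. Of 20 cytosolic aminoacyl-tRNA synthetases, 0 were called in Il23r ΔTreg mice and 2 in WT mice (Mars1 and Vars, higher), with medians of 0.35 and 0.43. These counts also stand beside 25.7% and 25% of all genes called.

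Between genotypes, 0 of the 54 members were called in tumors (Il23r ΔTreg over WT) by edgeR's quasi-likelihood test, where 1.73% of all genes were called. That share was 296 genes, and 3, 5, 6, 1 and 4 genes were called without mouse2902, mouse2903, mouse2988, mouse2989 or mouse3883. Without mouse2901, mouse2904 or mouse2990 it was 295, 292 and 270 genes. At an unadjusted p under 0.05 there were 12 members (7 lower and 5 higher in Il23r ΔTreg tumors), or 22.2%, where 20.4% of all genes were. In adjacent normal tissue, 0 were called (all genes 0.00584%), and 1, Slc7a6, had an unadjusted p under 0.05 (4.16% of all genes). The interaction was called for 0 members (0% of all genes), with 5 members at an unadjusted p under 0.05 (13.8% of all genes). DESeq2 called 3 members in the tumors, 0 in adjacent normal tissue and 3 for the interaction.

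Slc43a3, a carrier of purine bases that was chosen after its values were seen, was the only member past the adjusted p between tumors. It was at 12.9, 12.6, 15.3, 19.3 and 11.4 CPM in Il23r ΔTreg tumors, against 22.4, 27.4 and 26.7 CPM in WT tumors. Adjacent normal tissue was at 40.5, 33.8, 34.3, 34.9 and 36.8 CPM in Il23r ΔTreg mice, against 37.7, 29.8 and 27.9 CPM in WT mice. The tumor groups did not overlap and the adjacent normal groups did. The log2 difference between tumors was -0.84 ± 0.16 (SE, n = 5 and 3 mice, edgeR adjusted p = 0.0219), under the fold limit of 1.

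Against adjacent normal tissue, Slc43a3 had a log2 fold change of -1.33 ± 0.14 (SE, n = 5 mice, edgeR adjusted p = 4.35e-06) in Il23r ΔTreg mice and -0.32 ± 0.18 (SE, n = 3 mice, adjusted p = 0.176) in WT mice, and the interaction was -1.02 ± 0.23 (SE, edgeR adjusted p = 0.159, DESeq2 -1.04 with an adjusted p of 0.00478). Without 1 mouse the adjusted p between tumors ran from 0.0146 to 0.0947, at differences of -0.97 to -0.76, and it passed 0.05 without mouse2902, mouse2903, mouse2988, mouse2989 or mouse3883 (0.0628, 0.0544, 0.0696, 0.0947 and 0.0658). Without TMM scaling, which moved the median of all genes to 0.295, it was -0.58 (adjusted p = 0.133), and 19 genes were called higher and 27 lower between tumors, against 25 higher and 271 lower with it.

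Some markers of blood cells and of colonocytes differed between the same tumors, where 1.58% of all genes were called lower. Macrophage and monocyte markers summed to 162 to 342 CPM in Il23r ΔTreg tumors and 595 to 817 CPM in WT tumors (5 of 8 called lower), T cell markers to 13.7 to 26.7 CPM in Il23r ΔTreg tumors and 57.8 to 79.2 CPM in WT tumors (5 of 7), and B and plasma cell markers to 64.4 to 597 CPM in Il23r ΔTreg tumors and 510.5 to 1355 CPM in WT tumors (4 of 6). Endothelial markers summed to 127 to 170.1 CPM in Il23r ΔTreg tumors and 155 to 172 CPM in WT tumors (0 of 6 called). Neutrophil markers summed to 218 to 786 CPM in Il23r ΔTreg tumors and 267 to 412 CPM in WT tumors (0 of 7 called, with a median log2 difference of 0.42), and mast cell markers to 41.1 to 429.7 CPM in Il23r ΔTreg tumors and 373 to 1445 CPM in WT tumors (0 of 6 called, median -1.64). Colonocyte markers summed to 273 to 1048 CPM in Il23r ΔTreg tumors and 861 to 1281 CPM in WT tumors. Of these 10 markers, 2 were called lower (Aqp8 and Car4), with a median of -1.475. The part of these cells in the level of Slc43a3 or of other members was not tested. 

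The relatives Slc43a1 (LAT3) and Slc43a2 (LAT4) carry branched-chain and aromatic amino acids. Slc43a1 was at 4.91, 1.64, 2.98, 2.07 and 4.35 CPM in Il23r ΔTreg tumors, against 3.58, 3.91, 2.9001, 4.19 and 3.85 CPM in their adjacent normal tissue. It was at 4.96, 2.83 and 3.11 CPM in WT tumors, against 4.39, 3.85 and 2.76 CPM in WT adjacent normal tissue. Its groups overlapped in every comparison. Slc43a2 was at 39.9, 19.2, 23.4, 24.6 and 29.02 CPM in Il23r ΔTreg tumors, against 30.5, 21.5, 18.7, 17.003 and 29.01 CPM in their adjacent normal tissue. Levels were 24.9, 26.1 and 27.997 CPM in WT tumors, against 25.5, 18.3 and 17.3 CPM in WT adjacent normal tissue. The groups of Slc43a2 overlapped as well, the differences of Slc43a1 and Slc43a2 between tumors were -0.18 and 0.05 on the log2 scale, and neither was called in any of the comparisons.

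The other members at an unadjusted p under 0.05 between tumors did not pass the adjusted p. Slc38a1, Slc7a1 and Slc7a6 were higher in every Il23r ΔTreg tumor than in every WT tumor, by log2 differences of 0.43 ± 0.16, 0.40 ± 0.16 and 0.38 ± 0.17 (SE, edgeR adjusted p = 0.172, 0.182 and 0.215). Slc7a8 and Slc6a17 had differences of 1.43 ± 0.56 and 1.03 ± 0.47 (adjusted p = 0.178 and 0.236), with overlapping groups. In all, 6 of the 54 members did not overlap between the tumor groups, 11.1%, where 16.4% of all genes did not, and 2 did not overlap between the adjacent normal groups (2.99% of all genes).

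Slc1a3, Slc36a2, Slc6a4, Slc6a19, Slc6a20b and Slc36a3os had negative differences between tumors, at low counts apart from Slc36a2 and Slc6a4. Those of Slc36a2 and Slc6a4 were -1.48 ± 0.61 and -1.89 ± 0.70 (SE, edgeR adjusted p = 0.2 and 0.162), with overlapping groups. Slc6a4 held 20, 271 and 19 counts in WT tumors, the most in mouse2989. The difference of Slc1a3 was -1.68 ± 0.56 (SE, edgeR adjusted p = 0.125), and -2.40 without mouse2904 (adjusted p = 0.0312). That of Slc6a19 was -4.27 ± 1.08 (adjusted p = 0.0527) and rested on the 18 counts of mouse2989. Slc36a3os, chosen after its values were seen, was at 0.112, 0.152, 0.0847, 0.0477 and 0.0672 CPM in Il23r ΔTreg tumors, against 0.863, 0.356 and 0.646 CPM in WT tumors, with 2 to 8 counts against 20 to 22 counts. Its difference was -2.66 ± 0.76 (adjusted p = 0.0803), and with the mouse as a block it was -2.49 (limma voom, adjusted p = 0.0497). In WT mice it was higher in tumors than in adjacent normal tissue (3.60 ± 1.00 SE, adjusted p = 0.0107), a call lost without mouse2990 (2.92, adjusted p = 0.0774), and the value was 5.25 without mouse2988.

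**Figure D5:**
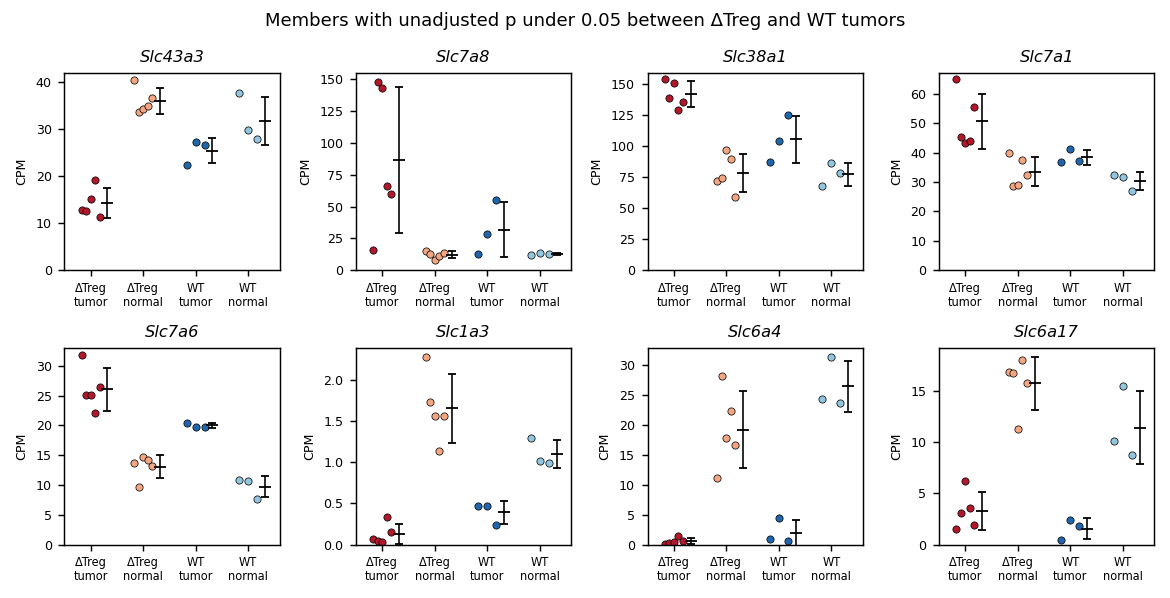
CPM of 8 of the 12 members with an unadjusted p under 0.05 between Il23r ΔTreg and WT tumors, in each library (points), with the mean and SD beside them. Each axis starts at 0. For Slc43a3 the Il23r ΔTreg tumors (11.4 to 19.3 CPM) lie below the WT tumors (22.4 to 27.4 CPM), and for Slc7a8 the groups overlap.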

How the data were processed

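RNA-seq was performed on whole colon tissue (poly(A)-selected stranded libraries). Reads were trimmed by the authors (fastp 0.20.0), and Salmon 1.4.0 estimated abundances from a mouse GENCODE transcriptome with decoys. The deposited values are estimated counts, rounded to whole numbers and summed by gene. The deposited tables of fold changes and p-values from limma and DESeq2, and a normalized table, were not used. Per-sample columns that no label here names (64) were left out.

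Counts were analysed in R 4.3.3 with edgeR 4.0.16. Genes were filtered with filterByExpr (minimum count 10), which kept 17122 of 19574 genes, scaled by TMM and fitted by group over all 16 libraries, without a block. The quasi-likelihood test gave log2 fold changes, standard errors and p-values adjusted by Benjamini-Hochberg over all tested genes. A call needed a log2 fold change beyond 1 in size and an adjusted p below 0.05. In simulated counts for 17122 genes, the changed genes had a mean above 1 CPM, so lower levels were not covered. Recovery meant an adjusted p below 0.05 in the right direction, without the fold limit of a call. Of 100 genes changed 2-fold and 100 changed 4-fold, 55 and 92 were recovered in Il23r ΔTreg tumors against adjacent normal tissue. In WT mice, 25 and 83 of 100 were recovered. For the comparison of the tumors these were 48 and 88 of 100, for adjacent normal tissue 39 and 87, and for the interaction 10 and 67.

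Same-numbered tumor and adjacent normal samples came from the same animal, so the numbers pair the samples. For mouse2901 the cage label differed between both libraries, and the mouse number was used as given. Their deviations from the group means correlated by -0.266 to 0.327 across genes. As an alternative, the mouse entered edgeR as a block within mice, and limma (3.58.1, voom) as a random effect between genotypes, with a correlation of 0.127. Other alternatives were upper quartile, relative log expression or no normalization, the removal of the filter on low counts, a stricter filter (at least 3 libraries with CPM over 1), DESeq2 1.42.0, limma on log2 CPM with a prior count of 3, only the groups compared, no fold limit, no Rn18s, the cage label as a block, each mouse left out, and the tumor of mouse2988 left out. Voom without a block and leaving out the tumor of mouse2989 were chosen after seeing the data.

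The members and gene lists were chosen with earlier results of these data known. Values per library are given for up to 8 members in each direction that were called in both genotypes at a mean log2 CPM of at least 0, for members called between genotypes, and for a set of 25 members chosen by role. Members outside it were chosen after their values were seen (Slc1a3, Slc1a7, Slc6a13, Slc6a15, Slc38a3, Slc43a3 and Slc36a3os). Promoters were taken from RefSeq (GRCm38.p6). Some results are not reported here. Figures were drawn with matplotlib 3.10.9.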

Additional observations from a re-analysis of the deposited data

Results flagged for a closer look

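Each member with values per library under the naming rule was checked for a library far from the others of its group, by the gap to the nearest library over the range of the group, in the Il23r ΔTreg groups of 5. This covered 58 groups, of which 4 had such a library. Chance gives about 1 in 20. Slc1a4 was at 113.85 CPM in the Il23r ΔTreg tumor of mouse2903, where the other 4 tumors were at 46.4 to 65.5 CPM. Slc6a14 was at 65.958 CPM in the tumor of mouse2904, where the others were at 36.3 to 44.9 CPM, and the log2 fold change stayed between -3.51 and -3.12 under every alternative. Slc6a19 was at 0.016936 CPM in the tumor of mouse2903 and Slc38a5 at 0.014039 CPM in that of mouse2901, each from 1 count, where the other 4 tumors were at 0. No member had every Il23r ΔTreg mouse moving one way and every WT mouse the other.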

How the results depend on the processing

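Over 21 planned and 2 added alternatives, no call of a member against adjacent normal tissue turned its direction, and 28 of 30 calls in Il23r ΔTreg mice and 18 of 24 in WT mice held under every alternative in which the gene was tested. The exceptions are given beside each gene, apart from those that follow. With only the groups compared, Slc6a20a, Slc7a3 and Slc36a2 lost their WT calls (adjusted p = 0.0579, 0.069 and 0.0622). Slc36a2 also lost its call with no filter (0.0534) and without the tumor of mouse2988 (0.115) or mouse2989 (0.114), and Slc1a6 without TMM scaling (0.0515). With no filter, Slc6a3 was called lower in Il23r ΔTreg mice and Slc38a5 lower and Slc36a3 higher in WT mice, all with a few counts. Slc38a3 was called in WT mice with limma on log2 CPM (1.44, adjusted p = 0.0239). Slc7a6 passed the fold limit in Il23r ΔTreg mice under 7 alternatives (1.01 to 1.11). Members called in Il23r ΔTreg mice numbered 26 (stricter filter) to 40 (no fold limit, 21 higher and 19 lower), and 29 to 31 with 1 mouse left out. In WT mice they numbered 19 to 27, and 19 to 25 with 1 mouse left out, the lowest without mouse2990.

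Between tumors, where edgeR's quasi-likelihood test called 0 members, 1 was called with upper quartile normalization (Slc6a19), with the stricter filter (Slc6a19), with limma on log2 CPM, with only the groups compared and with the mouse as a block (Slc36a3os each), and with no fold limit (Slc43a3). DESeq2 called 3 (Slc1a3, Slc36a3os and Slc6a19). Leaving out 1 mouse gave 0 to 2 calls, with Slc1a3 without mouse2904, and Slc6a19 and Slc1a7 (1.92, adjusted p = 0.0486) without mouse2990. In adjacent normal tissue 0 were called throughout. For the interaction, 0 were called apart from 3 with DESeq2 (Slc1a3 -2.35, Slc36a3os -4.33 and Slc43a3 -1.04, adjusted p = 0.0446, 0.0465 and 0.00478). Apart from construction (fewer genes or samples), the causes were not tested. With the mouse as a block, the calls that changed were those of Slc7a3 and Slc3a1 in WT mice and Slc36a3os between tumors, and 30 members were called in Il23r ΔTreg mice and 24 in WT mice.

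With 3 WT mice, changes near 2-fold were often missed in simulated counts, and members with a few counts per library (Slc6a19, Slc36a3os, Slc1a6, Slc38a3, Slc38a5) are limited by depth.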
